A study of Mus musculus with 4 samples.

Results

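The 8 genes described here are Zbtb16, Tsc22d3, Fkbp5, Sgk1, Errfi1, Klf9, Nr3c1 and Slc25a25, which are grouped as glucocorticoid-responsive genes and make up 8 of the 31053 genes in each deposited matrix. They were taken by symbol, and they were chosen by name with earlier results on the UMI counts of these 4 libraries known, so every level and difference is given as a description, with no test. Each library was prepared from kidney of male C57BL/6 mice after ischemia-reperfusion (IR), a surgical injury in which renal blood flow is stopped and restored. Mice were killed 5, 14 or 28 days after injury without probiotic (IR_d5, IR_d14 and IR_d28), or 5 days after injury following 4 weeks of oral gavage with Lactobacillus casei Zhang at 1e9 CFU per day before the injury (IR_Lac.z_d5). There is 1 library per group, every group carries the injury, and the labels do not say how many animals entered a library, how old they were or what the mice without probiotic received by gavage. No uninjured kidney is among the samples. Values for the 4 libraries are written in the order IR_d5, IR_Lac.z_d5, IR_d14 and IR_d28 throughout.

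Glucocorticoid hormone binds the glucocorticoid receptor, encoded by Nr3c1, which is held ready for hormone by Hsp90 and its co-chaperones and then enters the nucleus. There it binds glucocorticoid response elements, paired inverted repeats near its target genes, and raises or lowers their transcription. Several of the targets act back on the hormone signal or carry its effects: Fkbp5 encodes a co-chaperone that lowers the receptor's affinity for hormone, Tsc22d3 encodes the anti-inflammatory protein GILZ, and Sgk1 encodes a kinase that acts on sodium transport in the distal nephron. In the kidney the same hormone can also bind the mineralocorticoid receptor, from which the enzyme encoded by Hsd11b2 normally shields it. Sgk1, Errfi1, Klf9 and Slc25a25 are also known to respond to growth factor, stress, cAMP or clock signals.

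On GRCm38, GENCODE places Zbtb16 at chr9:48654297-48836222, Tsc22d3 at chrX:140539528-140600659, Fkbp5 at chr17:28399094-28517527 and Slc25a25 at chr2:32414487-32451445, all on the minus strand. Sgk1 is at chr10:21882184-21999903, Errfi1 at chr4:150853919-150868892 and Klf9 at chr19:23141226-23168134, on the plus strand. All 8 are protein-coding genes, and the values below count UMIs over each whole gene.

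RefSeq promoter windows, 300 bases from 250 before to 50 after a transcription start on GRCm38.p6, were matched for 6 of the 8 genes, in 16 windows. Zbtb16 and Nr3c1 were not among them. The stretches shown are the 250 bases before the start for the windows that hold a full response element, since these are the genes whose promoters carry a motif of a hormone or cAMP signal. The consensus glucocorticoid element is AGAACA followed after any 3 bases by its inverted repeat TGTTCT, and reading both strands it is in 3 of 32851 windows (0.00913%), and 1 of these is a window of Sgk1. Capitals mark the element, which begins 189 bases before the start in chr10:21993640-21993889, plus strand.
Sgk1: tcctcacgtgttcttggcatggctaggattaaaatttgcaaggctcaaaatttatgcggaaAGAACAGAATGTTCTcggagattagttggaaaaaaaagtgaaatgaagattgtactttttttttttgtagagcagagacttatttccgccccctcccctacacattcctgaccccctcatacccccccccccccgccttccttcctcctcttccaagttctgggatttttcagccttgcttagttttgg
The cAMP response element TGACGTCA, read on both strands, is in 588 windows (1.79%). Among the 8 genes it is in 1 window of Slc25a25 (chr2:32424067-32424316, minus strand, beginning 150 bases before the start) and 1 window of Errfi1 (chr4:150854820-150855069, plus strand, beginning 51 bases before the start), again in capitals.
Slc25a25: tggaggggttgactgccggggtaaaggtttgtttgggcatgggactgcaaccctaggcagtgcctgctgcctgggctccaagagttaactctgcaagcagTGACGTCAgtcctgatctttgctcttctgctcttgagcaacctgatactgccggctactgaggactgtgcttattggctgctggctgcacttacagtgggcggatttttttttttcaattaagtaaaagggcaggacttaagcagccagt
Errfi1: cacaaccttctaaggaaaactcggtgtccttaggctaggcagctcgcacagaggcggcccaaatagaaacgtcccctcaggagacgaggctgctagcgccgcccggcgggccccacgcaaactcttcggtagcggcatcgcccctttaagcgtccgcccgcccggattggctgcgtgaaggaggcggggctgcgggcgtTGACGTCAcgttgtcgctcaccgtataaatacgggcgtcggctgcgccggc
A looser form, GNACA followed after any 3 bases by TGTNC, also matches every consensus element and is in 156 windows (0.475%) and among the members in the same Sgk1 window. The single repeat AGAACA, also counted inside the full element, is in 19.0% of windows, among them 3 of the 6 Sgk1 windows and 1 of the 3 Tsc22d3 windows. The E-box CACGTG, the element bound by clock factors, is in 7.15% of windows, including 1 of Sgk1 and the single window of Fkbp5. A match is a description of the letters in these windows and says nothing of binding in these kidneys.

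The matrices hold 8424, 8168, 11203 and 15583 barcodes with 76678882 to 104454319 UMIs per library, and 6684, 6646, 8839 and 12539 cells were kept after filters. Cells were placed in classes by marker scores, and the classes are therefore named as like a cell type. The make-up of the libraries differed: proximal tubule-like cells were 21.0%, 60.1%, 65.6% and 76.2% of kept cells and macrophage-like cells 55.7%, 23.3%, 8.85% and 3.53%, so all comparisons were made within a class. Every marker listed for a class was detected in that class in each library in which it had at least 50 cells. The classes were set by these same markers, so this is no check of the labels. Both day 5 matrices were written by software version 3.0.2 and the later ones by 3.1.0, so software version and time cannot be told apart. Each pair of libraries shared 15 to 43 barcodes.

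For each gene, UMIs were summed over the cells of a class in a library and divided by the class's total UMIs in that library, giving CPM, the counts per 1000000 UMIs of the class. A class enters a comparison with at least 50 cells in both libraries and a gene with at least 50 UMIs over both. A gene with few UMIs in 1 library thus enters only where the other library holds many. A gene is called higher or lower where the ratio of CPM, with 1 UMI added to each sum, passes 1.5-fold. Intervals are exact at 95% and hold counting error alone. The spread between animals was not measured, because a group is a single library, and no ratio below can be set against it.

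**Figure D1:**
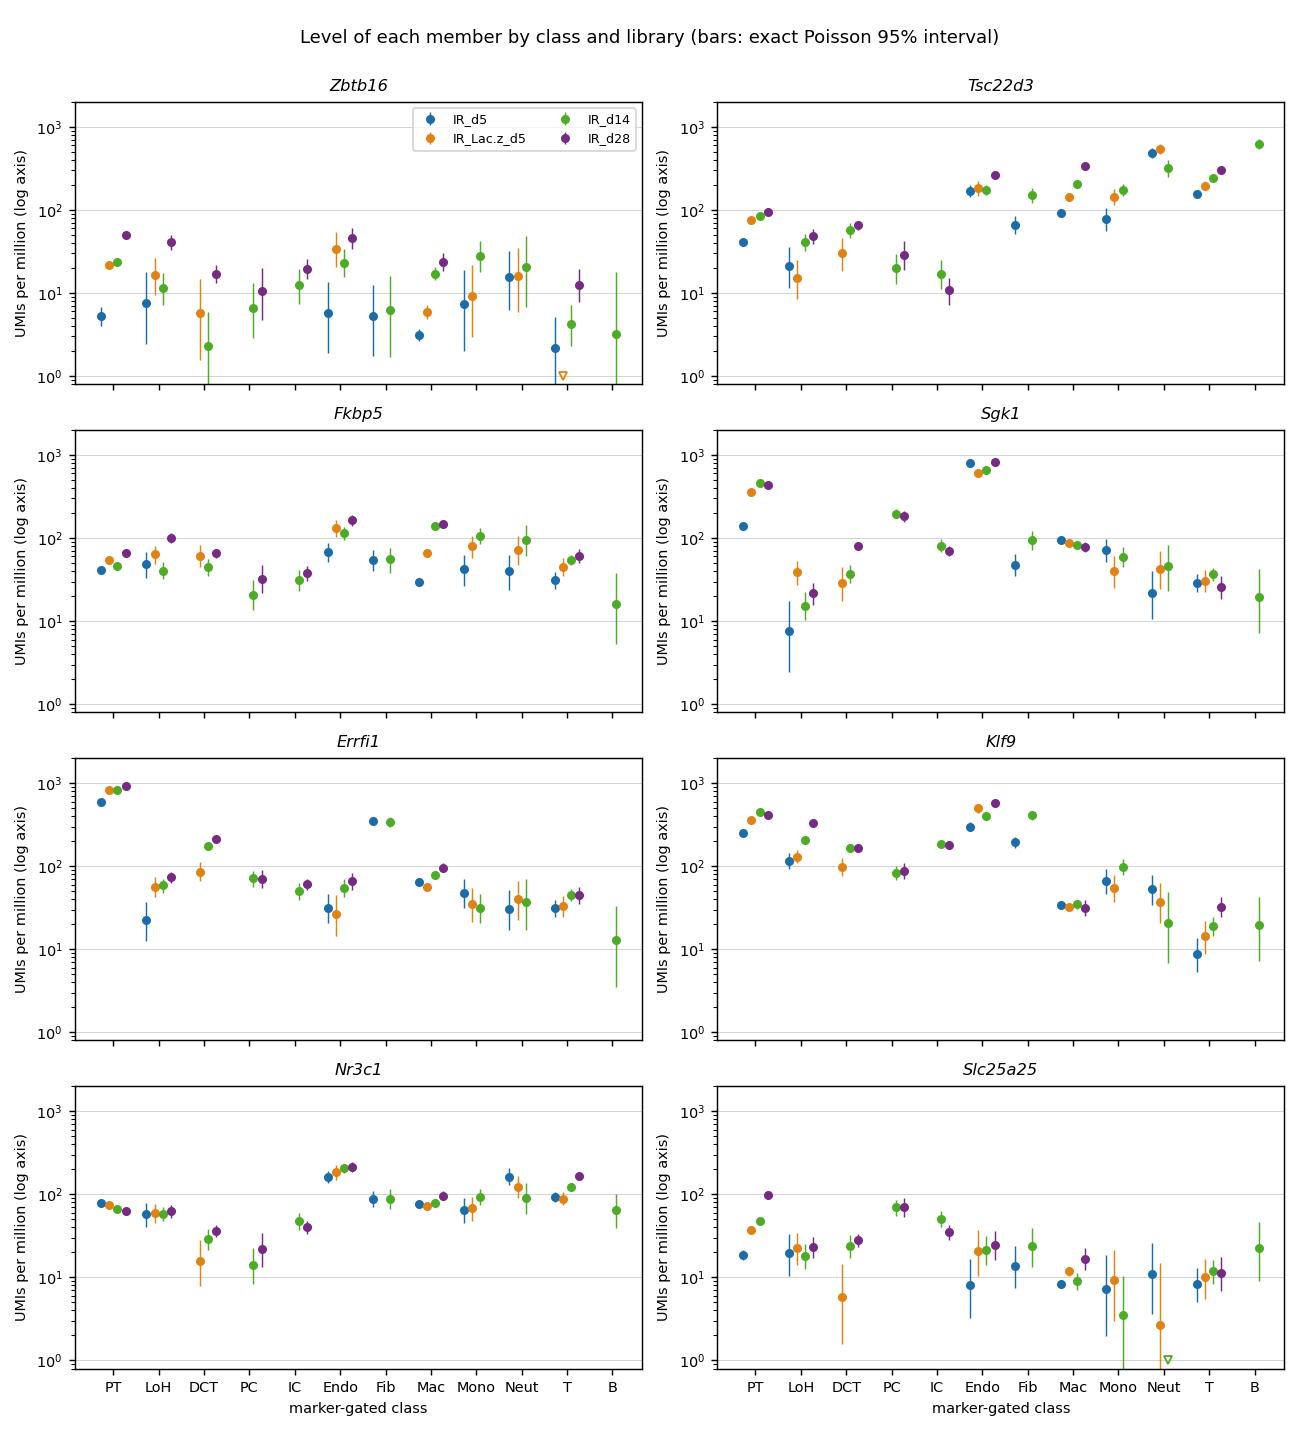
Level of each of the 8 genes in CPM (log axis) by marker-gated class and library. PT is proximal tubule-like, LoH loop of Henle-like, DCT distal convoluted tubule-like, PC principal cell-like, IC intercalated cell-like, Endo endothelial-like, Fib fibroblast or mural-like, Mac macrophage-like, Mono monocyte-like, Neut neutrophil-like, T T cell-like and B B cell-like; bars are 95% counting intervals, and an open triangle marks a library with 0 UMIs of the gene. Zbtb16 in PT goes from 5.28 CPM in IR_d5 to 50.6 CPM in IR_d28, while Nr3c1 in PT goes from 79.3 to 62.7 CPM.

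The receptor gene Nr3c1 was found in every class and was past the threshold in few of them: none of 7 measured classes in IR_Lac.z_d5, 1 of 8 on day 14 and 1 of 5 on day 28, each against IR_d5. In proximal tubule-like cells it was at 79.3, 74.1, 66.7 and 62.7 CPM, and the day 28 library was at 0.791 (0.737 to 0.8501) of day 5, which is not past the threshold. Macrophage-like cells were at 77.2, 72.8, 78.5 and 96.7 CPM and endothelial-like cells at 162, 185, 205 and 213 CPM. The level was thus highest in endothelial-like cells among these 3 classes in all 4 libraries. T cell-like cells stood apart in time, at 93.2, 88.9, 124 and 166 CPM, with day 28 at 1.78 times day 5 (1.48 to 2.14). Within them, cells with Cd4 and no Cd8a UMI held Nr3c1 at 96.6 CPM on day 5, 173 on day 14 and 219.6 on day 28, a ratio of 2.27 (1.57 to 3.30) for day 28 against day 5. Cells with Cd8a and no Cd4 UMI were at 70.2, 69.9, 88.9 and 93.3 CPM, with a ratio of 1.33 (0.934 to 1.89). On day 28 the Cd4 cells were at 2.35 times the Cd8a cells (1.63 to 3.39), from 82 and 183 cells. Neutrophil-like cells went the other way, at 163, 123 and 91.4 CPM in the first 3 libraries, and day 14 was at 0.560 of day 5 (0.331 to 0.912), from 22 and 74 UMIs.

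The genes that handle the receptor and its ligand differed widely between classes. Nr3c2, the mineralocorticoid receptor gene, was at 60.3 and 67.3 CPM in principal cell-like cells on days 14 and 28 and at 26.2 to 27.3 CPM in intercalated cell-like cells. It was at 1.33 to 1.77 CPM in proximal tubule-like cells and at no more than 1.52 CPM in macrophage-like cells. Hsd11b2, whose enzyme inactivates glucocorticoid, was at 4089 and 4797 CPM in principal cell-like cells (it is also one of their gating markers) and at no more than 0.685 CPM in proximal tubule-like cells. Hsd11b1, whose enzyme regenerates active hormone, was at 191 and 215 CPM in fibroblast or mural-like cells on days 5 and 14 and at 98.4, 103, 79.2 and 68.4 CPM in T cell-like cells, against 5.05 to 10.4 CPM in proximal tubule-like cells. The chaperone genes Fkbp4 and Hsp90ab1 were at 129 to 179.6 and 1028 to 1240.12 CPM in proximal tubule-like cells over the 4 libraries. Of the 17 genes of the receptor and ligand handling list, 16 were measured in proximal tubule-like cells. There 1, 1 and 0 were higher than IR_d5 in IR_Lac.z_d5, IR_d14 and IR_d28, with none lower. Of all genes, 5.81%, 8.84% and 6.44% were higher and 2.33%, 6.49% and 8.07% lower. In macrophage-like cells 13 were measured and 0, 0 and 2 were higher, beside 8.38%, 10.7% and 16.2% of all genes. The day 28 count is near that share. On day 28 Hsp90aa1, which encodes the inducible Hsp90, went from 272 to 543 CPM and the co-chaperone gene Stip1 from 35.8 to 53.8 CPM.

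Against IR_d5, IR_Lac.z_d5 held higher levels of several members at the same time after injury. Of 56 possible pairs of a gene and a class, 37 passed the minimum of UMIs, 12 were higher and 1 was lower, where 6.7% and 4.24% of all pairs of a measured gene and a class were past the same ratio. In proximal tubule-like cells 4 of 8 were higher, against 5.81% of genes, and in macrophage-like cells 3 of 8, against 8.38%. The median log2 ratio of the 8 genes was 0.69 in proximal tubule-like cells, where that of all genes was 0.06, and 0.21 in macrophage-like cells, where that of all genes was 0.04. In endothelial-like cells 2 of 5 measured members were higher (5.94% of genes), in loop of Henle-like cells 1 of 4 (4.29%), and in monocyte-like cells 2 of 5 were higher and 1 lower (12.9% and 4.79%). None of 2 was higher in neutrophil-like cells (6.35%) and none of 5 in T cell-like cells (4.57%). Since the members were chosen with such values known, nothing about them is read from the excess over these shares.

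The later libraries differed from IR_d5 in more pairs. On day 14, 48 of 64 pairs were measured, 21 were higher and 3 lower, beside 10.1% and 8.56% of all pairs. Higher members numbered 5 of 8 in proximal tubule-like cells (8.84% of genes), 3 of 5 in loop of Henle-like (9.26%), 2 of 6 in endothelial-like (9.27%), 3 of 6 in fibroblast or mural-like (15.2%), 3 of 8 in macrophage-like (10.7%) and 3 of 7 in T cell-like cells (6.77%). In monocyte-like cells 2 of 6 were higher and 1 lower (14.1% and 9.87%), and in neutrophil-like cells 0 of 2 were higher and 2 lower (11.6% and 12%). On day 28, 37 of 40 pairs were measured, 26 were higher and 0 lower, beside 11.4% and 9.21%. These were 7 of 8 in proximal tubule-like cells (6.44%), 6 of 8 in loop of Henle-like (16.3%), 5 of 7 in endothelial-like (9.98%), 4 of 8 in macrophage-like (16.2%) and 4 of 6 in T cell-like cells (9.13%). Day 28 against day 14, which involves no day 5 library, gave 14 higher and 1 lower of 60 measured out of 64 pairs, beside 5.88% and 4.96%. By class this was 2 of 8 in proximal tubule-like (3.19%), 3 of 8 in loop of Henle-like (10.1%), 2 of 8 in distal convoluted tubule-like (8.04%), 1 of 5 in principal cell-like (6.08%), 2 of 8 in endothelial-like (4.74%), 2 of 8 in macrophage-like (7.44%) and 1 of 7 in T cell-like cells (5.46%), with 1 higher and 1 lower of 8 in intercalated cell-like cells (3.2% and 6.46%). The 3 comparisons with IR_d5 share that library.

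**Figure D2:**
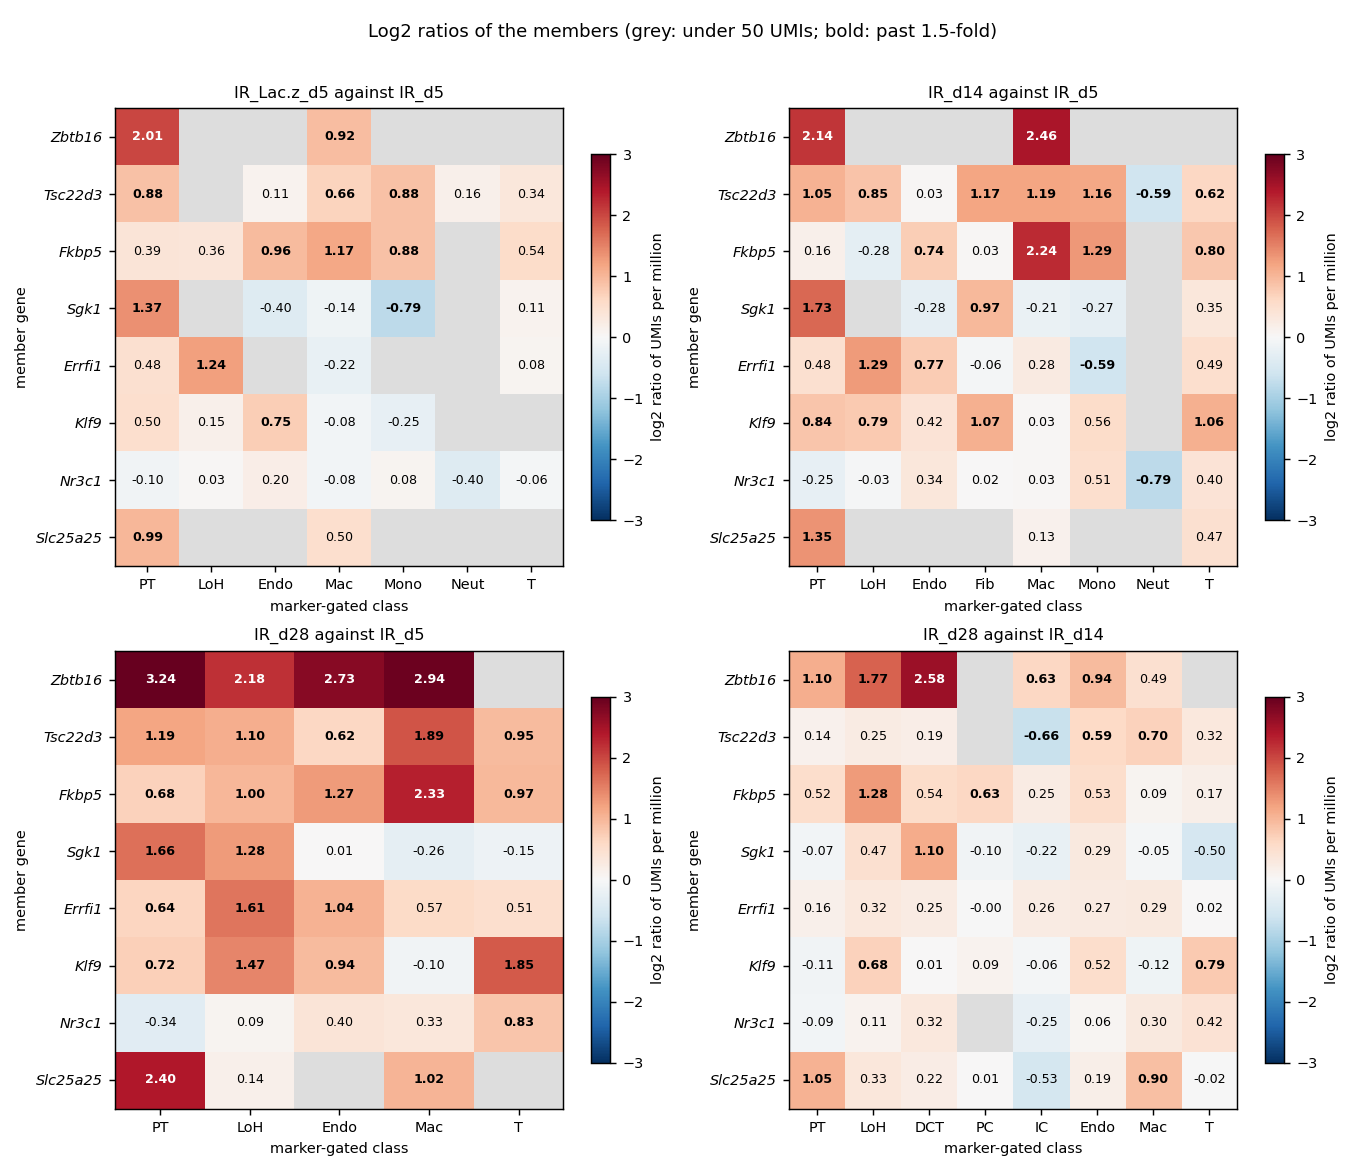
Log2 ratio of CPM for the 8 genes (rows) by class (columns) in each of the 4 comparisons, with 1 UMI added to each sum. Grey marks under 50 UMIs over both libraries and bold marks a ratio past 1.5-fold; abbreviations are as in the plot of levels. Zbtb16, Tsc22d3 and Fkbp5 are past the threshold in each measured class on day 28 against day 5, and Sgk1 in 2 of 5. Zbtb16 enters LoH and Endo there through its UMIs on day 28 (87 and 48, with 5 in each on day 5).

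How far the day 5 values depend on a single library was checked with IR_Lac.z_d5 in the place of IR_d5, an alternative chosen after the data were seen. It gave 10 higher and 3 lower of 50 measured pairs for day 14 (8.31% and 9.26% of all pairs) and 21 higher and 1 lower of 45 for day 28 (11.1% and 9.14%). In proximal tubule-like cells no member was past the threshold on day 14 with this reference, with log2 ratios of 0.13 for Zbtb16, 0.17 for Tsc22d3, 0.36 for Sgk1, 0.34 for Klf9 and 0.36 for Slc25a25. On day 28 only Zbtb16 and Slc25a25 were past it there, while Tsc22d3 was at 0.31, Fkbp5 at 0.29, Sgk1 at 0.29, Errfi1 at 0.16 and Klf9 at 0.22. In macrophage-like cells day 28 remained past it for Zbtb16 (2.02), Tsc22d3 (1.22) and Fkbp5 (1.17). On day 28 the other calls lost with it were Zbtb16 (0.35), Tsc22d3 (0.51), Fkbp5 (0.31) and Klf9 (0.20) in endothelial-like cells, Errfi1 (0.37) in loop of Henle-like, Slc25a25 (0.52) in macrophage-like and Fkbp5 (0.43) in T cell-like cells. On day 14 they were Tsc22d3 (0.28), Fkbp5 (0.26) and Klf9 (0.34) in T cell-like cells, Tsc22d3 (0.27) and Fkbp5 (0.41) in monocyte-like, Tsc22d3 (0.52) in macrophage-like, Errfi1 (0.05) in loop of Henle-like and Nr3c1 (-0.40) in neutrophil-like cells. Fkbp5 in endothelial-like cells on day 14 and Sgk1 in loop of Henle-like cells on day 28 changed sign, as given with these genes. The IR_d5 library is thus the low point for most of these genes in proximal tubule-like cells, and the probiotic day 5 library sits near day 14.

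Zbtb16 encodes PLZF, a zinc finger repressor induced by glucocorticoid in many cell types. Proximal tubule-like cells held 5.28, 21.5, 23.6 and 50.6 CPM of it, from 63, 777, 1136 and 3118 UMIs. The level was thus lowest in IR_d5 and highest in IR_d28. Against IR_d5 the ratios were 4.08 (3.16 to 5.37), 4.47 (3.47 to 5.85) and 9.58 (7.47 to 12.5), and day 28 was at 2.15 times day 14 (2.00 to 2.30). Of 11746 genes measured there on day 28 against day 5, Zbtb16 had the 15th highest log2 ratio. The other members ranked 36 (Slc25a25), 91 (Sgk1), 208 (Tsc22d3), 502 (Klf9), 564 (Fkbp5), 628 (Errfi1) and 9798 (Nr3c1). Since the members were chosen with such values known, nothing is read from a rank. Macrophage-like cells were at 3.13, 5.93, 17.2 and 23.9 CPM, with ratios of 1.89 (1.47 to 2.44), 5.48 (4.29 to 7.002) and 7.63 (5.58 to 10.3). The first of these calls was lost with the stricter gate, at a log2 ratio of 0.45. Here the step between day 5 and day 14 was large and that between day 14 and day 28 was 1.39 (1.01 to 1.89). In endothelial-like cells the levels were 5.82, 34.3, 23.3 and 45.3 CPM, but IR_d5 rests on 5 UMIs and the day 28 ratio of 7.79 has an interval of 3.12 to 25.1. With IR_Lac.z_d5 as the reference that log2 ratio was 0.35. Loop of Henle-like cells held 7.59, 16.4, 11.5 and 40.8 CPM, with 5 UMIs in IR_d5, and day 28 was at 3.54 times day 14 (2.18 to 6.01). Distal convoluted tubule-like cells held 5.74, 2.31 and 17.0 CPM in the last 3 libraries, a day 28 to day 14 ratio of 7.35 (2.74 to 27.7) from 68 and 4 UMIs. In T cell-like cells 5, 0, 14 and 21 UMIs were found. The 0 of 250 cells in IR_Lac.z_d5 allows a share of cells with a UMI of up to 1.20%, which is no limit on cells that express the gene, and 0.976%, 1.67% and 3.31% of cells held a UMI in the other libraries.

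Shares of cells with a Zbtb16 UMI were also taken after each cell was thinned to 2000 UMIs, because median UMIs per cell differed between libraries. Proximal tubule-like cells gave 0.922%, 4.35%, 2.36% and 6.37% after thinning, and 3.71%, 14.2%, 10.4% and 16.7% before, at median depths of 6904.5, 7927.5, 5977 and 4741 UMIs. The thinning left out 101, 132, 416 and 1624 cells. The shares of IR_Lac.z_d5 and IR_d14 lay in the other order from their CPM, so no order is read between these 2 libraries. In macrophage-like cells the thinned shares were 0.787%, 2.05%, 5.22% and 4.96%, and the unthinned 3.65%, 6.33%, 13.7% and 12.2%. No class here is sure to lack the gene, so T cell-like cells, which held little of it, are given for comparison: they had thinned shares of 0.767%, 0%, 0.312% and 1.56%. In IR_d5 the thinned shares of the 3 classes lay within each other's counting intervals.

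Tsc22d3, the gene of GILZ, was higher than IR_d5 in 6 of 8 measured classes on day 14, more than any other member, and in 5 of 5 on day 28. With CPM averaged over cells the calls were lost on day 14 in proximal tubule-like (log2 ratio 0.58) and loop of Henle-like cells (0.48) and on day 28 in endothelial-like cells (0.47). In proximal tubule-like cells it was at 41.2, 76.0, 85.5 and 93.9 CPM and in macrophage-like cells at 90.8, 144, 207 and 335 CPM. T cell-like cells held 156, 196, 239.8 and 300.1 CPM. All 3 classes were lowest in IR_d5 and highest in IR_d28. The day 28 to day 5 ratios were 2.28 (2.08 to 2.50), 3.69 (3.43 to 3.97) and 1.93 (1.68 to 2.21), and over the 5 classes measured they ran from 1.55 to 3.69. In endothelial-like cells the first 3 libraries were close, at 169.9, 183 and 174 CPM, and day 28 was at 263 CPM. Neutrophil-like cells held more Tsc22d3 than any of these classes, at 485, 543 and 319.9 CPM in the first 3 libraries, and were at 0.659 of day 5 on day 14 (0.502 to 0.858). That call was lost at a mitochondrial limit of 25% and after the median ratio of all genes was taken off, both at a log2 ratio of -0.56. On days 14 and 28 levels were lowest in intercalated cell-like cells, at 16.9 and 10.8 CPM, from 26 and 30 UMIs. Among proximal tubule-like cells, those with a UMI of the injury marker Havcr1 held 20.9, 44.6 and 49.8 CPM in the first 3 libraries, against 42.9, 79.4 and 88.5 CPM in cells without, ratios of 0.488 (0.291 to 0.771), 0.562 (0.476 to 0.660) and 0.563 (0.483 to 0.652).

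Fkbp5, the co-chaperone gene of the receptor's feedback loop, showed its largest ratios in macrophage-like cells. They were at 29.7, 66.7, 140.3 and 149 CPM, with ratios to IR_d5 of 2.24 (2.08 to 2.42), 4.72 (4.35 to 5.12) and 5.03 (4.48 to 5.63). Proximal tubule-like cells were at 41.4, 54.5, 46.4 and 66.5 CPM, with ratios of 1.32 (1.19 to 1.46), 1.12 (1.02 to 1.24) and 1.61 (1.46 to 1.77). The macrophage-like interval on each day lies above the proximal tubule-like one, though a difference between classes was not tested. With CPM averaged over cells the day 28 log2 ratio in proximal tubule-like cells was 0.27, below the threshold. Endothelial-like cells held 67.5, 132, 114 and 164 CPM, so IR_Lac.z_d5 was at 1.95 times IR_d5 (1.35 to 2.81). With IR_Lac.z_d5 as the reference, day 14 in endothelial-like cells was at a log2 ratio of -0.22. T cell-like cells held 31.1, 45.2, 54.6 and 61.2 CPM. The share of macrophage-like cells with a UMI after thinning was 5.39%, 14.4%, 23.9% and 28.4%, and 25.9%, 50.2%, 67.0% and 52.8% before, at median depths of 11208.5, 11101, 9163 and 5408 UMIs. Loop of Henle-like cells held 48.6, 63.4, 40.6 and 99.5 CPM, but in IR_d5 4 of the 50 cells held 65.6% of the UMIs.

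Sgk1, the kinase gene, did not move alike in all classes. The proximal tubule-like levels were 139, 359.7, 463 and 439 CPM, with ratios to IR_d5 of 2.58 (2.45 to 2.72), 3.32 (3.16 to 3.49) and 3.15 (3.00 to 3.31). Endothelial-like cells, which held the highest levels of the gene, were at 809, 614, 668 and 814 CPM, with ratios of 0.759 (0.663 to 0.867), 0.826 (0.745 to 0.915) and 1.01 (0.910 to 1.11). Macrophage-like cells were at 94.97, 86.4, 82.2 and 78.9 CPM and T cell-like cells at 28.9, 30.8, 37.0 and 25.8 CPM. IR_d5 was thus the lowest library in proximal tubule-like cells and not in endothelial-like or macrophage-like cells. Principal cell-like cells, in which the kinase is known for its action on sodium channels, were at 197 and 183 CPM on days 14 and 28. Distal convoluted tubule-like cells were at 28.7, 37.0 and 80.5 CPM in the last 3 libraries, with day 28 at 2.17 times day 14 (1.66 to 2.89). In loop of Henle-like cells the 7.59, 38.9, 15.4 and 21.6 CPM rest on 5, 38, 28 and 46 UMIs, and 4 cells held 84.2% of those in IR_Lac.z_d5. The loop day 28 call against IR_d5 (2.84, 1.13 to 9.17) turned to a log2 ratio of -0.86 with IR_Lac.z_d5 as the reference.

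Sgk1 also differed between subsets within a class. The macrophage-like cells of the libraries lay in different Leiden clusters: cluster 1 held 1316, 207, 33 and 10 cells, cluster 24 held 106, 906, 33 and 25, and cluster 0 held 1734, 324, 679 and 391, so values of the whole class compare different mixtures of these. Among macrophage-like cells, those with a UMI of Arg1 or Gpnmb, genes of wound-healing macrophages, numbered 1188 and 365 in IR_d5 and IR_Lac.z_d5 and fewer than 50 in the later libraries. They held Sgk1 at 153 and 151 CPM, 3.27 times (3.06 to 3.50) the cells without either gene in IR_d5. The cells without were at 46.7, 50.7, 61.6 and 73.2 CPM, so that day 28 was at 1.56 times day 5 in them (1.34 to 1.83), while the whole class was at 0.830 (0.719 to 0.954). At the level of proximal tubule markers in the whole class, proximal tubule RNA would bring 1.54 CPM of Sgk1 on day 5 and 22.1 CPM on day 28, and its part in this ratio was not tested. Zbtb16 showed the opposite distribution, at 0.777 CPM in the Arg1 or Gpnmb cells of IR_d5 and 5.09 in the others. In the cells without either gene Zbtb16 was still at 4.69 times day 5 on day 28 (3.41 to 6.41), Tsc22d3 at 3.24 (3.00 to 3.50) and Fkbp5 at 4.71 (4.16 to 5.32). Among proximal tubule-like cells, those with Slc7a13 and no Slc5a2 UMI, a pattern of the straight segment, held Sgk1 at 219, 605, 563 and 492 CPM. Those with Slc5a2 and no Slc7a13, a pattern of the early convoluted segment, held 108, 263, 376 and 420.5 CPM. The straight-segment pattern was thus higher by 2.03 times (1.80 to 2.29) in IR_d5 and by 1.17 times (1.14 to 1.20) in IR_d28.

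**Figure D3:**
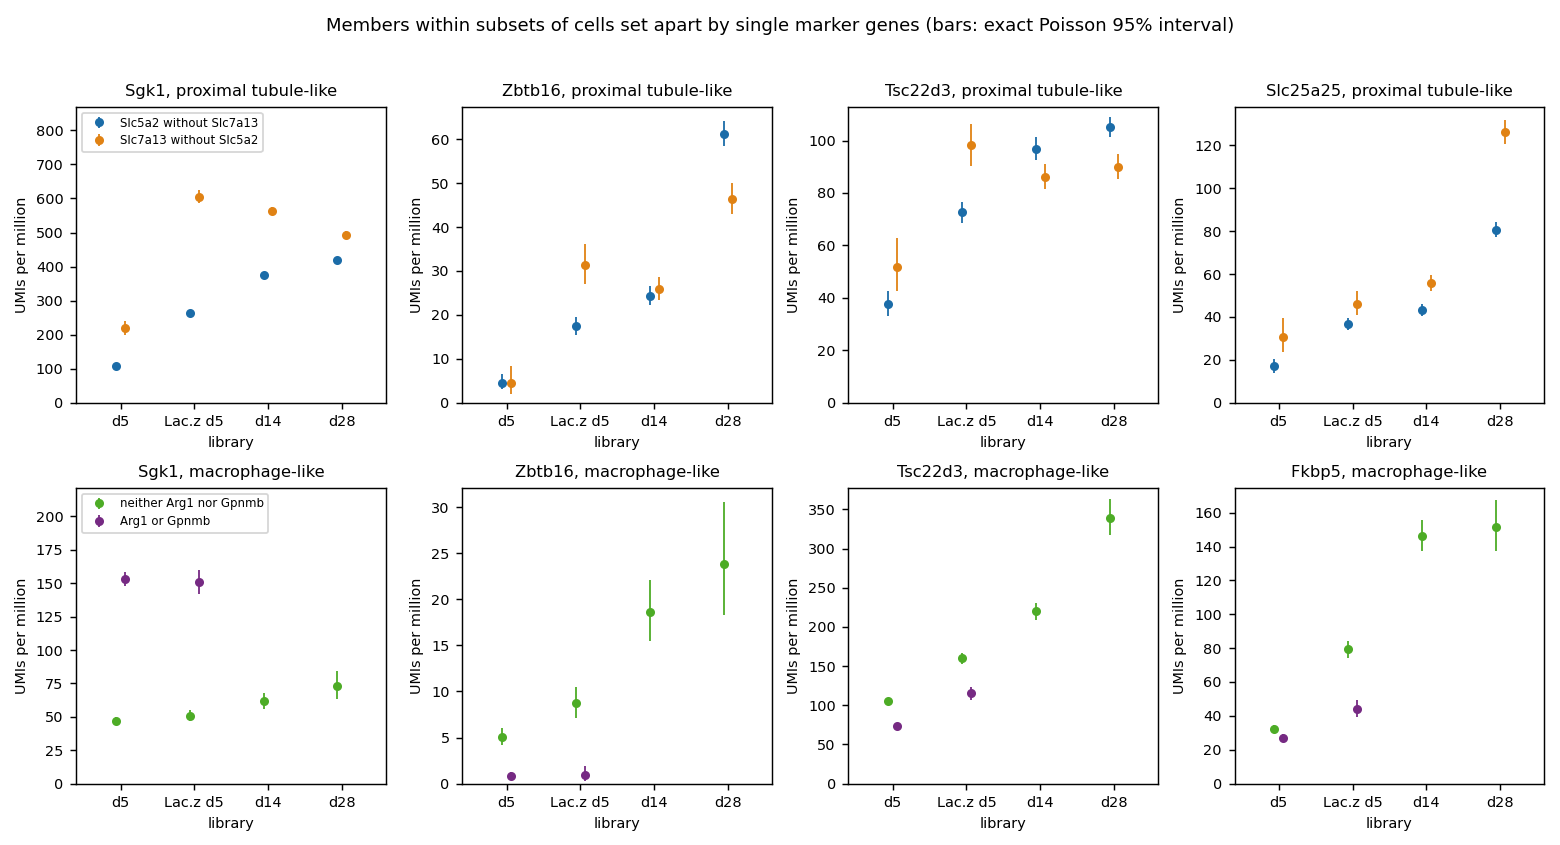
CPM (linear axis from 0) of members in cells split by marker UMIs, by library, with 95% counting intervals. The panels show macrophage-like cells with and without an Arg1 or Gpnmb UMI and proximal tubule-like cells with Slc5a2 only or Slc7a13 only. Sgk1 in macrophage-like cells without Arg1 or Gpnmb goes from 46.7 CPM in IR_d5 to 73.2 CPM in IR_d28.

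Klf9, a transcription factor gene induced by glucocorticoid and thyroid hormone, was higher than day 5 on day 28 in 4 of 5 classes, macrophage-like cells being the exception. Proximal tubule-like cells were at 252, 357, 450.3 and 416 CPM, with ratios to IR_d5 of 1.41 (1.36 to 1.47), 1.78 (1.72 to 1.85) and 1.65 (1.59 to 1.71). Endothelial-like cells were at 298, 499, 399.5 and 573 CPM and loop of Henle-like cells at 117, 129.9, 204 and 328 CPM. On day 28 these were at 1.92 (1.66 to 2.24) and 2.80 times day 5 (2.21 to 3.59). In IR_d5, however, 4 of the 50 loop of Henle-like cells held 66.2% of the Klf9 UMIs. Macrophage-like cells were at 34.1, 32.2, 34.6 and 31.5 CPM, with a day 28 ratio of 0.924 (0.732 to 1.15). At the level of proximal tubule markers in that class, proximal tubule RNA would bring 2.78 CPM of Klf9 on day 5 and 20.9 CPM on day 28. Its part in this ratio was not tested. T cell-like cells held little, 8.75, 14.3, 18.8 and 32.4 CPM, and their day 28 ratio was 3.71 (2.18 to 6.54). With CPM averaged over cells the proximal tubule-like log2 ratios were 0.44 on day 14 and 0.34 on day 28, both below the threshold.

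Errfi1 encodes an inhibitor of the EGF receptor family. Its level was highest in proximal tubule-like cells, at 585, 817, 817 and 915 CPM, with ratios of 1.40 (1.36 to 1.43), 1.40 (1.36 to 1.43) and 1.56 (1.53 to 1.60), so that only day 28 passed the threshold. In the stricter gate and with CPM averaged over cells the day 28 log2 ratio was 0.57 and 0.27, and the call was lost. Macrophage-like cells were at 64.7, 55.5, 78.2 and 95.5 CPM, loop of Henle-like cells at 22.8, 56.3, 58.7 and 73.7 CPM and endothelial-like cells at 31.4, 26.7, 54.8 and 66.1 CPM. With IR_Lac.z_d5 as the reference the loop of Henle-like log2 ratios were 0.05 on day 14 and 0.37 on day 28, and both calls were lost. In loop of Henle-like cells 4 cells held 73.3% of the Errfi1 UMIs in IR_d5 and 61.8% in IR_Lac.z_d5. Fibroblast or mural-like cells were at 352 CPM on day 5 and 338 CPM on day 14. Monocyte-like cells went the other way, at 47.7 CPM in IR_d5 and 31.7 CPM in IR_d14, from 26 and 27 UMIs. That ratio of 0.665 was called lower. Cells with a Havcr1 UMI held less of it than other proximal tubule-like cells in all 3 libraries with enough of them, at 0.711 (0.640 to 0.787), 0.614 (0.586 to 0.644) and 0.582 (0.555 to 0.610). The 1700045H11Rik gene overlaps Errfi1 on the other strand, and no source used here says whether counting used strand.

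Slc25a25 encodes a calcium-regulated carrier of ATP and magnesium in the inner mitochondrial membrane. The proximal tubule-like levels were 18.7, 37.2, 47.8 and 99.3 CPM, with ratios of 1.99 (1.73 to 2.31), 2.56 (2.23 to 2.95) and 5.32 (4.65 to 6.11). The last library was at 2.08 times day 14 (1.98 to 2.18) and at 2.67 times IR_Lac.z_d5 (2.52 to 2.83). Its day 28 log2 ratio was the 36th highest of 11746 genes, from which nothing is read, as for Zbtb16. Both segment patterns showed it, from 17.0 to 80.7 CPM with Slc5a2 only and from 30.8 to 126 CPM with Slc7a13 only between day 5 and day 28. Principal cell-like cells were at 69.5 and 69.6 CPM on days 14 and 28 and intercalated cell-like cells at 50.8 and 35.1 CPM. Macrophage-like cells held 8.38, 11.8, 9.04 and 16.7 CPM, and the day 28 ratio was 1.99 (1.42 to 2.73), a call that was lost with IR_Lac.z_d5 as the reference (log2 ratio 0.52). Naif1 overlaps Slc25a25 on the other strand.

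Set side by side, the 8 genes did not move alike over classes. On day 28 against day 5, Zbtb16 was higher in 4 of 4 measured classes, Tsc22d3 and Fkbp5 in 5 of 5, Klf9 in 4 of 5, Errfi1 in 3 of 5, Slc25a25 in 2 of 3, Sgk1 in 2 of 5 and Nr3c1 in 1 of 5. On day 28 against day 14, Zbtb16 was higher in 5 of 6 classes, and no other member in more than 2. Since 50 UMIs over both libraries were asked for, these tallies are in part set by that minimum. On day 28 against day 5, Zbtb16 entered with 5 and 48 UMIs in endothelial-like and 5 and 87 in loop of Henle-like cells. T cell-like cells, with 5 and 21, were left out. Distal convoluted tubule-like cells entered with 4 UMIs on day 14 and 68 on day 28. Across 35 pairs of a class and a library, with each class centred on its own mean, the genes with the pattern most like Zbtb16 among 1679 measured were Kdm6b (r = 0.76), Fkbp5 (0.74) and Ddx6 (0.74), for Tsc22d3 Brd2 (0.84), Pnrc1 (0.82) and Ddx5 (0.81), and for Fkbp5 Gpx3 (0.82), Ass1 (0.78) and Rida (0.75). For Klf9 they were Pim3 (0.79), Jun (0.77) and Prrc2c (0.76), for Errfi1 Sptan1 (0.81), Egr1 (0.76) and Zfp36 (0.75), and for Sgk1 Rbm5 (0.62), Capza1 (0.58) and Rbm25 (0.56). For Nr3c1 they were Cdk12 (0.76), Kmt2e (0.76) and Crebrf (0.75), and for Slc25a25 Mat2a (0.74), Ccnt1 (0.72) and Arhgap17 (0.70). Gpx3 and Ass1 are proximal tubule genes and Jun, Egr1 and Zfp36 immediate early genes. Among members the correlation was 0.74 for Zbtb16 with Fkbp5, 0.70 for Tsc22d3 with Klf9, and 0.00 for Sgk1 with Nr3c1. The 1679 genes needed at least 50 UMIs in each class over its libraries. Of the members only Fkbp5 is among them, so no other member could be named as alike. Some points rest on few UMIs, such as 0 for Zbtb16 in T cell-like cells of IR_Lac.z_d5. Points of 1 library share its animals, depth and free RNA, so these values are a description.

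**Figure D4:**
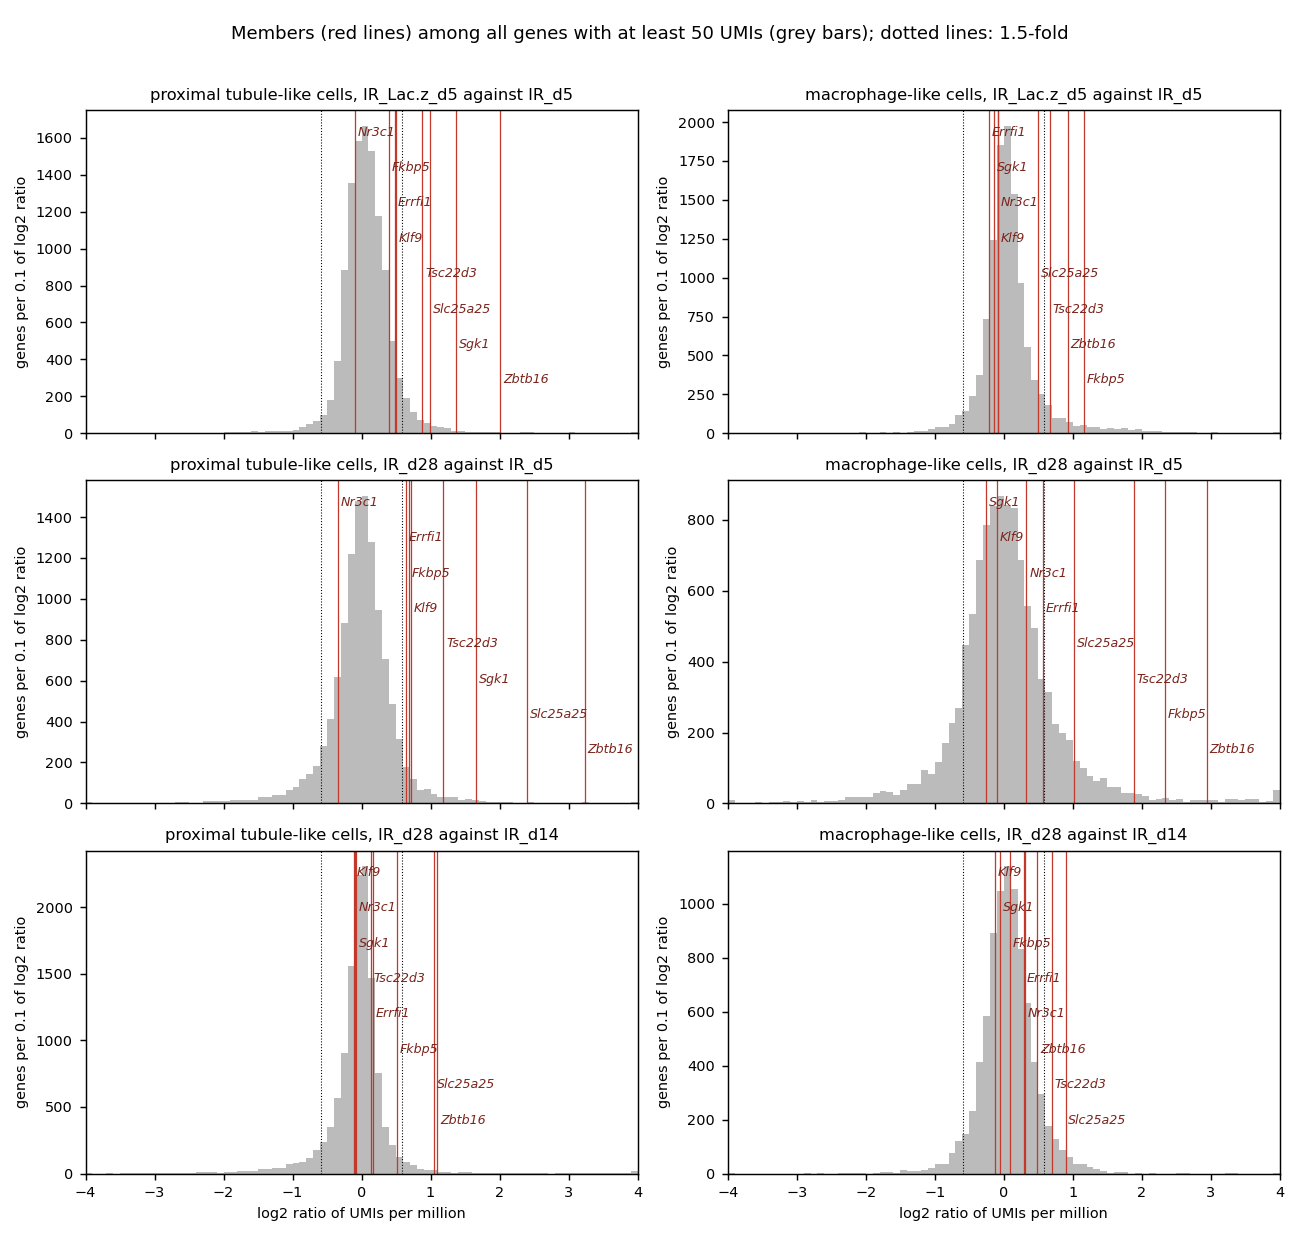
Distribution of log2 ratios of all measured genes in proximal tubule-like and macrophage-like cells, with the 8 members marked. On day 28 against day 5 the median of all genes is 0.01 in proximal tubule-like cells and that of the 8 members 0.95.

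Other genes known to be induced by glucocorticoid also stood higher than IR_d5 in part. Of 38 such genes, 30 or 31 were measured in proximal tubule-like cells. In IR_Lac.z_d5, IR_d14 and IR_d28, 11, 15 and 15 were higher and 1, 1 and 2 lower. Of all genes there, 5.81%, 8.84% and 6.44% were higher and 2.33%, 6.49% and 8.07% lower. In macrophage-like cells, of 34 measured, 4, 18 and 16 were higher and 3, 2 and 4 lower. Of all genes there, 8.38%, 10.7% and 16.2% were higher and 3.09%, 12.1% and 13% lower. On day 28 against day 14, 2 were higher and 5 lower of 31 in proximal tubule-like cells, where 3.19% of genes were higher and 6.93% lower. In macrophage-like cells 4 were higher and 6 lower of 32, where 7.44% of genes were higher and 4.43% lower. The median log2 ratio of the list in proximal tubule-like cells was 0.41, 0.58 and 0.56, beside 0.06, 0.03 and 0.01 for all genes. Per1, Tiparp and Zfp36 were higher in 5 of 5 classes on day 28. Per1, a clock gene, went from 11.7 to 29.4 CPM in proximal tubule-like and from 24.3 to 65.6 CPM in macrophage-like cells. Ddit4, whose product restrains mTORC1, was higher in 3 classes and lower in T cell-like cells, at 56.0 and 28.2 CPM. Pck1, the gluconeogenic enzyme gene, went from 689.6 to 1194 CPM in proximal tubule-like cells. Cebpd, an acute-phase transcription factor gene that glucocorticoid induces, was lower, at 20.9 and 10.7 CPM in proximal tubule-like and 238 and 113 CPM in macrophage-like cells.

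Genes known to be repressed by glucocorticoid differed by class. In proximal tubule-like cells 8 of 14 were measured. Against IR_d5, 2, 1 and 0 were higher and 3, 3 and 6 lower in IR_Lac.z_d5, IR_d14 and IR_d28. Of all genes there, 5.81%, 8.84% and 6.44% were higher and 2.33%, 6.49% and 8.07% lower. On day 28 Ccl2, a monocyte chemokine gene, was at 0.779 CPM against 6.03 on day 5, and Vcam1, an adhesion gene of injured tubule, at 3.31 against 16.4 CPM. The summed level of the 10 macrophage markers in these cells moved with them, at 522, 406, 454 and 195 CPM, and its part in these values was not tested. In macrophage-like cells 13 were measured, and 2, 4 and 7 were higher and 3, 1 and 3 lower. Of all genes there, 8.38%, 10.7% and 16.2% were higher and 3.09%, 12.1% and 13% lower. On day 28 Il1b, the gene of interleukin 1 beta, went from 581 to 2699 CPM and Vcam1 from 90.6 to 294 CPM, while Ccl2 went from 791 to 415 CPM. In endothelial-like cells 2 of 3 measured were higher in IR_Lac.z_d5 and 4 of 4 on day 14, with none lower. The shares of all genes higher there were 5.94% and 9.27%. Cxcl10, an interferon-induced chemokine gene, was higher in 5 of 5 classes in IR_Lac.z_d5, at 33.6 against 12.9 CPM in proximal tubule-like and 261 against 100.4 CPM in macrophage-like cells.

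Several measures also differed between the libraries. Genes of the dissociation and immediate early response can be induced by enzyme digestion at warm temperature. Against IR_d5, 9, 12 and 4 of 18 measured were higher in proximal tubule-like cells, beside 5.81%, 8.84% and 6.44% of all genes. In macrophage-like cells 2, 11 and 13 of 19 were higher, beside 8.38%, 10.7% and 16.2%. In IR_Lac.z_d5, IR_d14 and IR_d28 the median log2 ratio of the list was 0.00, 0.70 and 0.84 in macrophage-like cells. It was 0.57, 0.93 and 0.29 in proximal tubule-like cells. In endothelial-like cells 2 of 17, 15 of 18 and 12 of 18 were higher, beside 5.94%, 9.27% and 9.98%. The summed level of these genes was 6444, 9290.45, 10276 and 7435 CPM in proximal tubule-like and 13914, 13543, 21144 and 20384 CPM in macrophage-like cells. Of 16 clock genes measured in proximal tubule-like cells, 5, 6 and 6 were higher than IR_d5 and 1, 2 and 2 lower. Of all genes there, 5.81%, 8.84% and 6.44% were higher and 2.33%, 6.49% and 8.07% lower. Among the clock genes, Nr1d1 was at 21.1, 25.1, 156 and 117 CPM and Dbp at 63.0, 59.4, 41.3 and 16.6 CPM in these cells. No source used here gives the hour at which mice were killed, and the parts of clock time, handling and dissociation in the member levels were not tested. Median mitochondrial share in proximal tubule-like cells was 21.6%, 18.4%, 17.4% and 19.6%.

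Markers of proximal tubule cells were found in other classes at levels that differed between libraries. None of the 16 proximal tubule markers was at 0 in macrophage-like cells, and their summed level there was 282, 598, 1219 and 2364 CPM, which is 1.10%, 2.61%, 2.87% and 5.02% of the sum in proximal tubule-like cells. In T cell-like cells the sum went from 84.8 CPM in IR_d5 to 1331 CPM in IR_d28, with 1, 2, 0 and 0 of the 16 at 0, and in endothelial-like cells from 215 to 1753 CPM, with 5, 4, 0 and 0 at 0. The sum was at 0.332%, 1.47%, 2.04% and 2.83% of the proximal tubule-like sum in T cell-like cells and at 0.843%, 2.54%, 2.32% and 3.72% in endothelial-like cells. At 5.02%, the proximal tubule-like level of day 28 would bring 2.54 of the 23.9 CPM of Zbtb16 in macrophage-like cells, 4.71 of 335 CPM of Tsc22d3 and 3.34 of 149 CPM of Fkbp5. The same share would bring 22.1 of 78.9 CPM of Sgk1, 45.9 of 95.5 CPM of Errfi1, 20.9 of 31.5 CPM of Klf9 and 4.99 of 16.7 CPM of Slc25a25. On day 5, at 1.10%, the amounts would be 1.54 of 94.97 CPM of Sgk1 and 6.45 of 64.7 CPM of Errfi1. For Klf9 and Slc25a25 they would be 2.78 of 34.1 CPM and 0.206 of 8.38 CPM. The part of this RNA in the ratios was not tested. In T cell-like cells on day 28 it would bring 11.8 of 32.4 CPM of Klf9 and 25.8 of 45.0 CPM of Errfi1, and in endothelial-like cells 34.1 of 66.1 CPM of Errfi1. In loop of Henle-like cells it would bring 2.27, 5.58, 10.8 and 13.7 of the 7.59, 38.9, 15.4 and 21.6 CPM of Sgk1. On day 28 it would bring 28.5 of 73.7 CPM of Errfi1 there and 49.7 of 70.8 CPM in principal cell-like cells. Pck1, a proximal tubule gene, went from 2.80 to 50.0 CPM in macrophage-like cells over the same libraries. Amounts found in this way can exceed the whole level. For Errfi1 on day 14 they were 43.6 against 37.4 CPM in neutrophil-like and 30.1 against 13.0 CPM in B cell-like cells. The amounts are thus estimates and were not measured.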

How the data were processed

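Single-cell RNA of mouse kidney was measured in 4 droplet libraries, 1 per group. The deposited values are whole UMI counts per gene and barcode, not normalized, per the file headers of the matrices, which name software versions 3.0.2 and 3.1.0. Reads were placed on mm10, per the submitters' processing notes. No source used here gives the aligner's settings or the use of strand.

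A barcode was used if it held 200 genes or more and no more than 50% of its UMIs were mitochondrial. Doublets were taken as the highest Scrublet scores at 0.8% per 1000 barcodes (402, 397, 733 and 1599 cells), since Scrublet's own calls (161, 1, 63 and 2) were too few in some libraries. A cell's class score was the mean over its markers of the log count per 10000 UMIs, scaled to the 90th percentile of positive values and capped at 1. A class needed a score of 0.2, a lead of 0.1 and 3 markers, and 6.79%, 4.12%, 4.68% and 3.16% of cells had no class.

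UMIs were summed per class and library, and ratios of CPM were given with exact conditional binomial intervals at 95%. These cover counting error only, as do the limits that a count of 0 allows (3 counts). No p-value was computed, because each group is 1 library. The calculation was tested on simulated data with 200 changed genes. Alternatives were a mitochondrial limit of 25%, no doublet removal, Leiden clusters as classes, a stricter gate, no mitochondrial or haemoglobin UMIs, median centring, minimums of 200 and 10 UMIs, CPM averaged over cells and a threshold of 2-fold.

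The members and gene lists were chosen with earlier results of these data known. Genes named beside the 8 members are the 3 with the most similar pattern for each (Pearson r of log2 CPM with 1 added, class-centred), the genes of each list past 1.5-fold in the most classes, and Nr3c2, Hsd11b1, Hsd11b2, Fkbp4 and Hsp90ab1. Vcam1, Cebpd and Dbp were named after their values were seen. Tools were Python 3.11.15, NumPy 2.4.6, SciPy 1.17.1, scanpy 1.11.5 and pandas 2.3.3, with GENCODE M21 for gene positions.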

Additional observations from a re-analysis of the deposited data

Results flagged for a closer look

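A pair of results was flagged because classes moved in opposite directions in the same comparison. Calls in both directions were also found for Errfi1 on day 14 against day 5 and for Tsc22d3 on day 28 against day 14. The difference between classes was not tested in any of these, since each group is 1 library.

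Sgk1 in IR_Lac.z_d5 was at 2.58 times IR_d5 in proximal tubule-like cells and at 0.567 times in monocyte-like cells. In monocyte-like cells of IR_d5, 4 of 51 cells held 56.4% of the Sgk1 UMIs, and with CPM averaged over cells the log2 ratio was -0.00.

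Tsc22d3 on day 14 was at 0.659 times day 5 in neutrophil-like cells. In the same comparison it was at 2.07 times in proximal tubule-like, 1.91 in loop of Henle-like, 2.27 in fibroblast or mural-like, 2.28 in macrophage-like, 2.27 in monocyte-like and 1.54 in T cell-like cells. The neutrophil-like call was lost at a mitochondrial limit of 25% and with median centring, at a log2 ratio of -0.56 in each. On day 28 against day 14, Tsc22d3 was at a log2 ratio of -0.66 in intercalated cell-like, 0.70 in macrophage-like and 0.59 in endothelial-like cells. Each of these calls was lost under some of the alternatives.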

How the results depend on the processing

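No paired analysis was possible because each group is 1 library. Of the 78 calls of a member in a class over the 4 comparisons, 58 of the 62 that had a value were kept at a mitochondrial limit of 25%. There were 76 of 78 kept without doublet removal, 71 of 72 with Leiden classes and 61 of 68 with the stricter gate. Without mitochondrial and haemoglobin UMIs 77 of 78 were kept, with median centring 74 of 78 and with CPM averaged over cells 67 of 78. At 200 UMIs 46 calls had a value. None of these could be lost, because the minimum selects pairs and does not change a ratio. With IR_Lac.z_d5 as the day 5 reference, chosen after seeing the data, 19 of 46 were kept and 44 of 46 had the same direction. The reversed ones were Fkbp5 in endothelial-like cells on day 14, at a log2 ratio of -0.22, and Sgk1 in loop of Henle-like cells on day 28, at -0.86.

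Counts moved by over 1.5 times as follows. The 12 higher pairs in IR_Lac.z_d5 became 19 at 10 UMIs and 4 at 2-fold, and the 1 lower pair became 3 with Leiden classes and 0 at a mitochondrial limit of 25%, at 200 UMIs, with CPM averaged over cells and at 2-fold. The 21 higher pairs on day 14 became 12 at 200 UMIs, 13 at 2-fold and 10 with IR_Lac.z_d5 as the reference, and the 3 lower became 1 at a limit of 25%, 1 at 200 UMIs and 0 at 2-fold. The 26 higher pairs on day 28 became 17 at 2-fold, and the 0 lower became 1 with IR_Lac.z_d5 as the reference. Day 28 against day 14 went from 14 to 7 higher at 200 UMIs and 6 at 2-fold, and from 1 to 0 lower at both. The cause was not tested, beyond the fewer pairs measured at 200 UMIs and the larger ratio asked for at 2-fold. The median log2 ratio of all genes was off 0 by over 0.1 in neutrophil-like cells of IR_Lac.z_d5 against IR_d5 (-0.16) and in loop of Henle-like cells on day 28 against day 14 (0.13). With IR_Lac.z_d5 as the reference it was so on day 14 in macrophage-like (-0.13), neutrophil-like (0.12) and distal convoluted tubule-like cells (0.10) and on day 28 in loop of Henle-like (0.15) and distal convoluted tubule-like cells (0.18). In day 28 against day 14, Tsc22d3 in intercalated cell-like cells lost its call without doublet removal (-0.28), with Leiden classes (-0.55) and with CPM averaged over cells (-0.14), and Fkbp5 in principal cell-like cells at a mitochondrial limit of 25% (0.44). Depth limits the classes with few cells, above all loop of Henle-like cells of IR_d5, where Zbtb16 and Sgk1 rest on 5 UMIs each. For every member, 4 of the 50 cells of that class held 65.6% or more of its UMIs in IR_d5.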
